A study of Mus musculus with 4 samples.

Results

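The 10 Wnt ligand genes Wnt2, Wnt3, Wnt4, Wnt5a, Wnt6, Wnt7b, Wnt10a, Wnt10b, Wnt11 and Wnt16 were followed across the mouse mammary rudiment, from the embryonic bud to birth. They were chosen by symbol from the 19 Wnt ligands in the gene lists, and each had the same Ensembl identifier in all 4 tables, which share 30406 genes. The data are single-cell RNA-seq counts of transcripts tagged with unique molecular identifiers (UMIs), from mammary tissue of female wild-type C57B6 mice (C57 B6/N in the study's methods) at 4 stages, from E13.5 over E14.5 and E15.5 to the day of birth (P0). Each stage is 1 library of tissue pooled from several animals, sorted into EpCAM+ and EpCAM- cells after immune, endothelial and red blood cells had been gated out. P0 tissue was digested with other enzyme concentrations than embryonic tissue and was treated to lyse red cells. No animal carried a transgene or a treatment, and no stage has a second library, so there is no replicate spread, no test was run, and stage and library cannot be told apart.

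Cells were used when they held 5000 UMIs or more, of which at most 6% were mitochondrial, which left 1630 cells. A cell counted as epithelium when its UMIs of Epcam, Krt8, Krt18, Krt5 and Krt14 together outnumbered those of Col1a1, Col1a2 and Col3a1, and as mesenchyme in the opposite case. This gave 98, 45, 532 and 230 epithelial cells in stage order and 135, 31, 283 and 273 mesenchymal cells, with 3 ties left out. The rule takes in skin epithelium dissected with the bud, which the paper removed as contamination before its epithelial analysis. With its own cell filters the paper kept fewer epithelial cells at E13.5 and E14.5 than are used here, 22 of them at E13.5. The 45 epithelial cells of E14.5 formed 1 cluster. In it, 5 of 10 markers of mammary epithelium and 3 of 8 of skin epidermis were raised over the mesenchyme. At E13.5, 22 of the 98 epithelial cells were in the cluster led by Pthlh that is described later. Median depths ran from 8743 UMIs per cell in P0 mesenchyme to 26725 in E14.5 epithelium, and no kept barcode was shared between libraries. The summed epithelial markers of the rule were at 3269 to 13878 CPM (counts per 1e+06 UMIs) in the epithelium and at 41.8 to 358 in the mesenchyme. The mesenchymal markers were at 4842 to 74311 CPM in the mesenchyme and at 34.3 to 309 in the epithelium. Cells were assigned to a tissue by these same markers, so a gap between the tissues follows from the rule. Summed endothelial markers stayed at or below 35.5 CPM in every tissue and stage. The 4 blood and immune markers summed to at most 4.21 CPM except in P0 mesenchyme, where they reached 2829 CPM. Nearly all of this was Hba-a1, of which 6857 UMIs lay in 6 cells of a cluster of 54 cells led by Hist1h2ap. That cluster held no UMI of Wnt2 or Wnt10b, so those cells carried none of the UMIs of these ligands given for P0.

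Wnt ligands are secreted, lipid-modified glycoproteins. They bind Frizzled receptors, with the coreceptors LRP5 and LRP6 to stabilise beta-catenin, or with ROR and RYK coreceptors to act without it. In the embryo, Wnt signals through beta-catenin are needed for the mammary placode to form and for the bud to grow, and signals pass between the bud epithelium and the mesenchyme around it. Wnt3, Wnt6, Wnt10a and Wnt10b are usually classed as ligands of the beta-catenin pathway, Wnt5a and Wnt11 as ligands that mostly act without it, and Wnt4 as able to do either depending on the cell.

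In the reference genome (GRCm38, GENCODE annotation), Wnt6 (chromosome 1, 74771892 to 74785322) and Wnt10a (chromosome 1, 74791516 to 74804179) are neighbours on the same strand, with 6194 bases between them. Wnt3 lies on chromosome 11 (103774150 to 103817957) and Wnt10b on chromosome 15 (98770712 to 98778150). Wnt7b is also on chromosome 15 (85535437 to 85582473). Wnt4 is on chromosome 4 (137277489 to 137299726), Wnt5a on chromosome 14 (28504750 to 28527448) and Wnt11 on chromosome 7 (98835112 to 98855195). Wnt2 (17988940 to 18030585) and Wnt16 (22288227 to 22298522) are both on chromosome 6. None overlaps another gene on its own strand. Wnt5a, Wnt6, Wnt7b and Wnt11 each overlap a gene on the other strand.

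The 250 bases before the start of 3 ligands with different patterns are shown, taken from RefSeq (GRCm38.p6) and written 5′ to 3′ on the strand of the gene. Wnt6 had the highest level of the 10 in E13.5 epithelium, Wnt10b was epithelial in the embryo and mesenchymal at P0, and Wnt11 was mesenchymal at every stage. Capitals mark a match to the core of the TCF/LEF motif, which TCF and LEF proteins bind together with beta-catenin.

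Wnt6, chr1:74771642-74771891, plus strand: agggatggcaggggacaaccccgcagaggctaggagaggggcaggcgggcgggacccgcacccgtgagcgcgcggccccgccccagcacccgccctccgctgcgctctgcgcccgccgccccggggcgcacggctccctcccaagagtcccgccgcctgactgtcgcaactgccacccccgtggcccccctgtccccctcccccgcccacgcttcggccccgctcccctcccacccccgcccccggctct
Wnt10b, chr15:98778151-98778400, minus strand: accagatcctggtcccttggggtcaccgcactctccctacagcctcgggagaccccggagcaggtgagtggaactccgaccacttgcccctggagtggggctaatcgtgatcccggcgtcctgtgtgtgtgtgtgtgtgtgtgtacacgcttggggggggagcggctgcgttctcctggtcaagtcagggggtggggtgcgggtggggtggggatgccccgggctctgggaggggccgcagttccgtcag
Wnt11, chr7:98834862-98835111, plus strand: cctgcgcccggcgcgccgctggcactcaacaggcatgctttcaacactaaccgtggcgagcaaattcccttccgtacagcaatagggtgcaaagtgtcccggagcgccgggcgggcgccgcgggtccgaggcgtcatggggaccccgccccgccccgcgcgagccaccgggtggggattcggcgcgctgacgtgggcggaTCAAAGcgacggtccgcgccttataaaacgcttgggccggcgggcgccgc

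All 3 windows were rich in G and C, at 79.6% for Wnt6, 66.8% for Wnt10b and 70.8% for Wnt11, where the median of 32851 promoters was 52.4%. They held 28, 14 and 37 CG pairs, against a median of 6. The TCF/LEF core was searched as CTTTGA or TCAAAG on both strands and was found in 13.8% of all windows. Among the 8 windows of the 7 ligands with an entry, the window of Wnt11 printed above was the only one with a match, 50 bases before the start. The same window held TATAAA, a sequence found on either strand in 12.4% of all windows. These matches describe letters and were not tested as binding sites.

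The 2 tissues of the embryonic rudiment expressed different ligands. Levels are CPM, a gene's share of the UMIs summed over the cells of a tissue, given with exact 95% Poisson intervals. Ratios have exact conditional binomial intervals and shares of cells exact binomial ones. All cover counting error only. A tissue with no UMI was read as 3 counts, and the resulting ratio is written as at least that value. The lower end of its interval can lie below it. Because 1 tag is counted per transcript at its 3′ end, CPM has no transcript length in it and was compared between genes as it stands. Other differences between genes in how fully their transcripts are counted were not tested. Tissues were compared for genes with at least 20 UMIs over both, and a gene was called higher in a tissue from a 2-fold difference. At E13.5, 6 of the 9 ligands with enough UMIs were higher in epithelium (Wnt3, Wnt4, Wnt6, Wnt7b, Wnt10a and Wnt10b), against 10.3% of all genes tested, and 3 were higher in mesenchyme (Wnt2, Wnt5a and Wnt11), against 21.9%. At E14.5 the same 6 were higher in epithelium (14.7% of all genes), and Wnt5a and Wnt11 in mesenchyme (17.5%), out of 8 tested. At E15.5 the split was again 6 against 3 of 10, with Wnt16 in neither set, where 16.8% and 22.5% of all genes were called. The E15.5 call of Wnt2 leaned on 1 cell, which held 13 of its 21 mesenchymal UMIs. At P0, only Wnt7b of 6 tested ligands was higher in epithelium (24.7% of all genes), and 4, Wnt2, Wnt5a, Wnt10b and Wnt11, were higher in mesenchyme (18.9%). The median log2 ratio of epithelium to mesenchyme over the tested ligands was 4.21, 2.83, 2.45 and -2.26 in stage order, beside medians of -0.18, 0.02, -0.10 and 0.30 over all genes tested. At P0 epithelium held 56.7% of all called genes, and 43.0% when the tissues were scaled by the median of gene ratios. That scaling subtracted 0.32 from all log2 ratios at P0, -0.16 at E13.5 and -0.11 at E15.5. The ratios thus fell at P0 and rose at E13.5 and E15.5. The number of ligands called in each tissue was the same with that scaling.

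**Figure D1:**
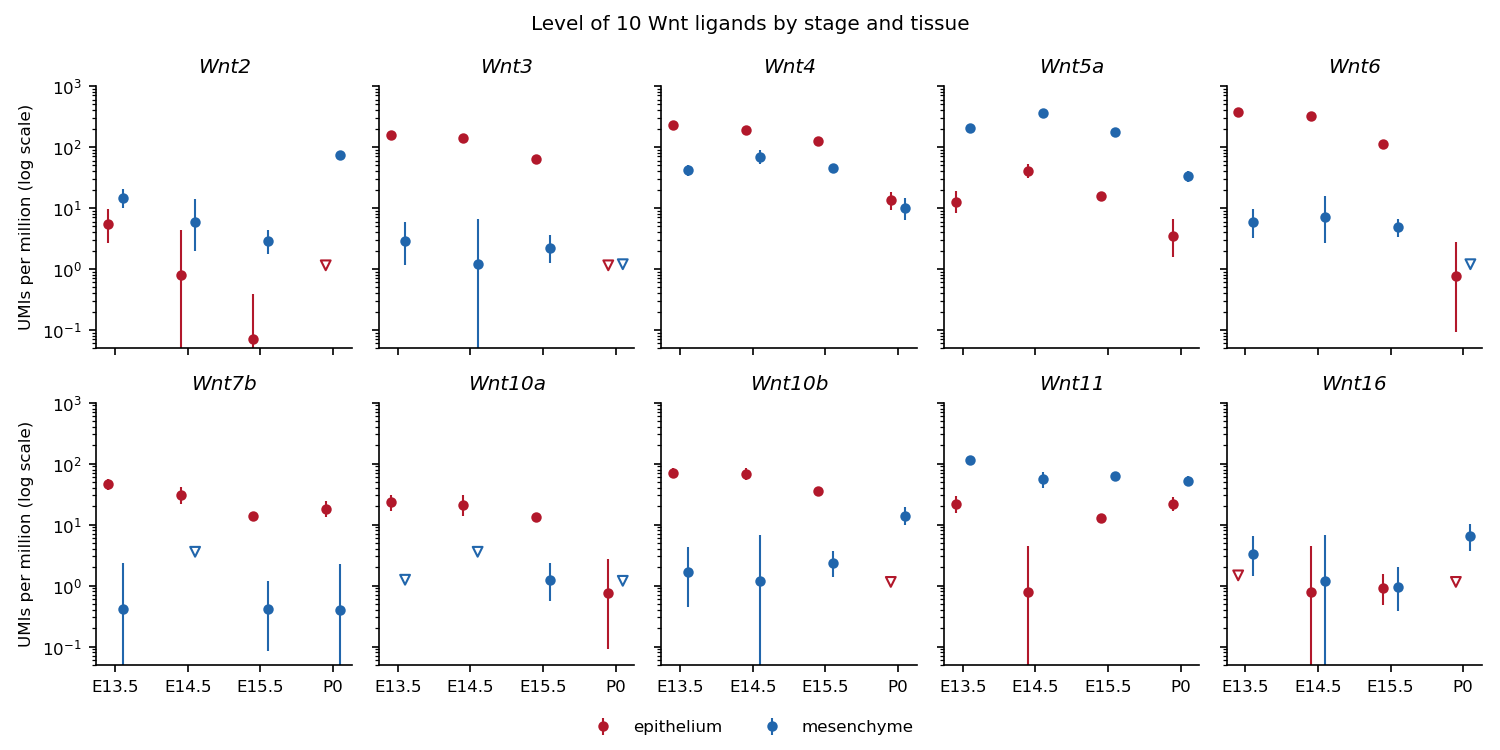
Level of each of the 10 ligands by stage (horizontal axis) in epithelium and mesenchyme, in CPM on a log axis, with exact 95% Poisson intervals as bars. Open triangles stand for tissues with no UMI of the gene and are drawn at the level of 3 counts. Wnt3, Wnt6, Wnt7b and Wnt10a lie far above in epithelium in the embryo, Wnt5a and Wnt11 in mesenchyme at every stage, and Wnt10b changes sides at P0.

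Wnt6 and Wnt4 had the highest levels of the 10 ligands in embryonic epithelium, followed by Wnt3. Wnt6, which is expressed in many embryonic surface epithelia, was at 371 CPM (345 to 399) in E13.5 epithelium, 317 (287 to 350) at E14.5, 111 (106 to 117) at E15.5 and 0.765 (0.0926 to 2.76) at P0. In mesenchyme it was at 5.81, 7.16 and 4.82 CPM in the embryo and had no UMI at P0. Epithelium was thus 63.9-fold (37.8 to 117), 44.3-fold (20.2 to 121) and 23.1-fold (16.5 to 33.2) higher at the 3 embryonic stages. The P0 epithelial level came from 2 UMIs in 2 cells, near the limit of detection.

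Wnt3 was at 155 CPM (139 to 173), 141 (121 to 163) and 62.4 (58.4 to 66.6) in epithelium at the 3 embryonic stages. No Wnt3 UMI was found at P0 in either tissue, where the exact interval reaches 1.41 CPM in epithelium and 1.47 in mesenchyme. The epithelium was 53.4-fold (25.6 to 134) higher than mesenchyme at E13.5, 118-fold (20.9 to 4679) at E14.5 and 28.3-fold (17.3 to 49.8) at E15.5. The 16 mesenchymal UMIs at E15.5 lay in 3 cells, of which the highest held 13 together with 596 UMIs of the epithelial and 691 of the mesenchymal markers, so both marker sets were abundant in it. When a cell had to have 3 times more UMIs of its own marker set, no Wnt3 UMI was left in E15.5 mesenchyme. Epithelium was then at least 148-fold higher (interval from 120). Wnt6 then was 38.0-fold (24.8 to 61.5) higher in E15.5 epithelium.

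Wnt10b and Wnt10a had lower levels with the same direction. Wnt10b, an early marker of mammary placodes, was at 71.0 CPM (59.9 to 83.6), 68.3 (54.7 to 84.3) and 36.1 (33.1 to 39.4) in embryonic epithelium and at 1.66, 1.19 and 2.34 CPM in mesenchyme. The ratios were 42.8 (16.3 to 159), 57.3 (10.0 to 2287) and 15.4 (9.53 to 26.7). At P0 the epithelium had no Wnt10b UMI, while the mesenchyme had 14 CPM (9.72 to 19.4) from 35 UMIs in 23 cells, at least 12.2-fold more. Wnt10b was the only member called in epithelium at one stage and in mesenchyme at another. The P0 cells with the most Wnt10b UMIs had between 0 and 3 UMIs of the epithelial markers and 1036 to 2833 of the mesenchymal ones. Wnt10a, the neighbour of Wnt6, was at 23.0 CPM (16.9 to 30.6), 21.2 (14 to 30.9) and 13.3 (11.5 to 15.3) in embryonic epithelium and at 0.765 at P0. It had no mesenchymal UMI at E13.5, E14.5 or P0. Its epithelial level was at least 18.5-fold higher at E13.5 (interval from 14.4) and at least 5.92-fold at E14.5 (interval from 4.50). At E15.5 it was 10.7-fold (5.53 to 23.8) higher.

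Wnt7b was epithelial at all 4 stages. It was at 45.6 CPM (36.8 to 55.8) in E13.5 epithelium, 30.6 (21.8 to 41.9) at E14.5, 14 (12.1 to 16.1) at E15.5 and 18.0 (13.2 to 23.9) at P0. Mesenchyme held 1, 0, 3 and 1 UMIs. The E15.5 level was 0.778 times that of P0 (0.564 to 1.09), an interval that takes in no difference. Wnt7b was the only one of the 6 epithelial ligands whose level at birth was within 2-fold of that at E15.5.

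Wnt4 was shared by the tissues. It was at 232 CPM (212 to 254), 191 (168 to 216) and 124 (119 to 130) in embryonic epithelium and at 41.5 (33.8 to 50.5), 69.2 (52.6 to 89.5) and 44.5 (39.8 to 49.6) in mesenchyme. The epithelium was higher by 5.59-fold (4.50 to 7.01) at E13.5, 2.76-fold (2.06 to 3.74) at E14.5 and 2.80-fold (2.48 to 3.16) at E15.5. At P0 it was at 13.4 CPM (9.32 to 18.6) and 9.97 CPM (6.45 to 14.7), a ratio of 1.34 (0.781 to 2.34) that was not called.

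Wnt5a led the mesenchyme of the embryo. It was at 202 CPM (184 to 221), 360 (321 to 403), 173 (164 to 183) and 33.1 (26.4 to 41.0) from E13.5 to P0. The epithelial levels were 12.7, 40.8, 15.7 and 3.44 CPM. The mesenchyme was 15.8-fold (10.7 to 24.5), 8.82-fold (6.56 to 12.1), 11-fold (9.55 to 12.8) and 9.61-fold (4.83 to 21.8) higher in stage order. Both tissues had their highest Wnt5a level at E14.5, where the mesenchyme was 1.79-fold (1.54 to 2.07) and the epithelium 3.21-fold (1.97 to 5.35) above E13.5. Among the E13.5 epithelial clusters described later, Wnt5a was at 43.1 CPM in cluster 4, so that this cluster was 1.05 times (0.562 to 1.88) the E14.5 epithelium, while clusters 2 and 3 were at 8.26 and 1.72 CPM. This sets 1 cluster of E13.5 beside the whole E14.5 epithelium, which formed 1 cluster. Cell make-up and stage therefore cannot be told apart for this epithelial difference. The E14.5 values rest on 31 mesenchymal and 45 epithelial cells.

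Wnt11 was at 114 CPM (101 to 128), 54.9 (40.2 to 73.2), 62.1 (56.5 to 68.1) and 51.8 (43.3 to 61.6) in mesenchyme. Epithelium had 21.6, 0.785, 12.9 and 21.8 CPM. The mesenchymal excess was 5.28-fold (3.83 to 7.43), 69.9-fold (11.9 to 2820), 4.80-fold (4.04 to 5.73) and 2.38-fold (1.73 to 3.31). The E14.5 epithelium had 1 Wnt11 UMI, so that ratio has a wide interval, and thinning every cell of that stage to 5000 UMIs left no epithelial UMI.

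Wnt2 and Wnt16 were the scarce ligands of the embryo. Wnt2, known from lung and other mesenchyme, was at 14.53 CPM (10.1 to 20.2), 5.97 (1.94 to 13.9) and 2.89 (1.79 to 4.42) in embryonic mesenchyme and at 72.6 (62.4 to 83.9) at P0. The P0 level made it the highest of the 10 ligands in that tissue, ahead of Wnt11, and their intervals were apart. P0 epithelium had no Wnt2 UMI, so mesenchyme was at least 63.2-fold higher, after 2.70-fold (1.34 to 5.89) at E13.5 and 41.3-fold (6.65 to 1710) at E15.5. The E15.5 mesenchyme held 21 Wnt2 UMIs, 13 of them in 1 cell. Without that cell Wnt2 would have had too few UMIs at E15.5 for a call. Wnt16 had at most 16 UMIs in a tissue at any stage, with 6.38 CPM (3.65 to 10.4) in P0 mesenchyme as its highest level. Only E15.5 gave it enough UMIs for a ratio, which was 0.943 (0.350 to 2.79).

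The order of levels changed at birth. In E13.5 epithelium it ran Wnt6, Wnt4, Wnt3, Wnt10b, Wnt7b, Wnt10a, Wnt11, Wnt5a, Wnt2, with no UMI of Wnt16. The first 5 had intervals apart from each other, and Wnt10a, Wnt11 and Wnt5a each overlapped the next in order. This order mixes the clusters described later. In cluster 4, which held 22 of the 98 cells, it ran Wnt6, Wnt3, Wnt4, Wnt10b, Wnt10a, Wnt5a, Wnt7b, Wnt11. Wnt3 at 240 CPM and Wnt4 at 232 were nearly level there, and Wnt7b and Wnt11 rested on 4 and 2 UMIs. In E15.5 epithelium Wnt4 was ahead of Wnt6, with intervals of 119 to 130 and 106 to 117 CPM. In P0 epithelium the order began with Wnt11 at 21.8 CPM, Wnt7b at 18.0 and Wnt4 at 13.4, whose intervals overlapped. In mesenchyme Wnt5a, Wnt11 and Wnt4 were the first 3 at E13.5 and E15.5 with intervals apart. At E14.5 Wnt5a was again first, and Wnt4 and Wnt11 overlapped. At P0 the mesenchymal order was Wnt2, Wnt11, Wnt5a, Wnt10b, Wnt4, Wnt16, with Wnt10b overlapping Wnt4 and Wnt4 overlapping Wnt16.

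Summed over the 10 genes, the ligand level of the epithelium was 938 CPM (896 to 981), 812 (763 to 863), 391 (381 to 401) and 58.1 (49.3 to 68.2) in stage order. The mesenchyme was at 386 (361 to 411), 501 (454 to 551), 295 (283 to 308) and 188 (172 to 206). The epithelium thus held 2.43 times (2.25 to 2.63), 1.62 times (1.45 to 1.82) and 1.33 times (1.26 to 1.39) the mesenchymal sum in the embryo, and at P0 the mesenchyme held 3.24 times (2.69 to 3.91) the epithelial sum.

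Between stages, the values compare 1 library with another. Of the 98 E13.5 epithelial cells, 22 were in the cluster led by Pthlh that is described later. Cell make-up and stage therefore cannot be told apart in the epithelial ratios. In epithelium, E13.5 was above E15.5 by 3.34-fold (3.06 to 3.64) for Wnt6, 3.26-fold (2.52 to 4.18) for Wnt7b and 2.49-fold (2.18 to 2.83) for Wnt3. The ratios were under 2 for Wnt10b at 1.97 (1.62 to 2.37), Wnt4 at 1.87 (1.68 to 2.07) and Wnt10a at 1.73 (1.23 to 2.39). The gap between E15.5 and P0 was wider for most of the 6. E15.5 epithelium was 145-fold (40.2 to 1202) above P0 for Wnt6, 17.4-fold (4.74 to 145) for Wnt10a and 9.29-fold (6.66 to 13.4) for Wnt4. It was at least 54.4-fold above for Wnt3 (interval from 44.1) and at least 31.5-fold for Wnt10b (interval from 25.5). Wnt11 went the other way, 1.68-fold (1.23 to 2.28) higher in P0 epithelium. The sum of the 10 was 6.73-fold (5.73 to 7.96) higher at E15.5 than at P0.

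In mesenchyme the ligands did not move together. P0 was above E15.5 by 25.1-fold (15.9 to 41.5) for Wnt2, 6.62-fold (2.58 to 19.0) for Wnt16 and 5.96-fold (3.25 to 11.3) for Wnt10b. The E15.5 level of Wnt2 came from 21 UMIs, 13 of them in 1 cell, which its intervals do not take into account. E15.5 was above P0 by 5.24-fold (4.19 to 6.62) for Wnt5a and 4.46-fold (2.97 to 7.0) for Wnt4. Wnt11 was nearly level, at 1.20-fold (0.984 to 1.47). Between E13.5 and E15.5, Wnt2 was 5.02-fold (2.84 to 9.08) higher at the earlier stage. The share of cycling cells, those with at least 2 UMIs of Top2a and Mki67, moved with stage as well. It was 48.0%, 24.4%, 22.9% and 10% in epithelium and 33.3%, 38.7%, 34.3% and 2.56% in mesenchyme. Without cycling cells, 5 rather than 6 ligands were called in E13.5 and in E14.5 epithelium, and the other 6 counts were the same. The share of all genes called without cycling cells is not given here, so these counts were not set against it. The epithelial ligands stayed above 2-fold at both stages in every alternative that gave a ratio. Their lowest log2 ratio of epithelium to mesenchyme was 2.17 at E13.5 and 1.04 at E14.5, both for Wnt4. The lost calls were thus of ligands left with fewer than 20 UMIs, not of ratios under 2-fold.

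**Figure D2:**
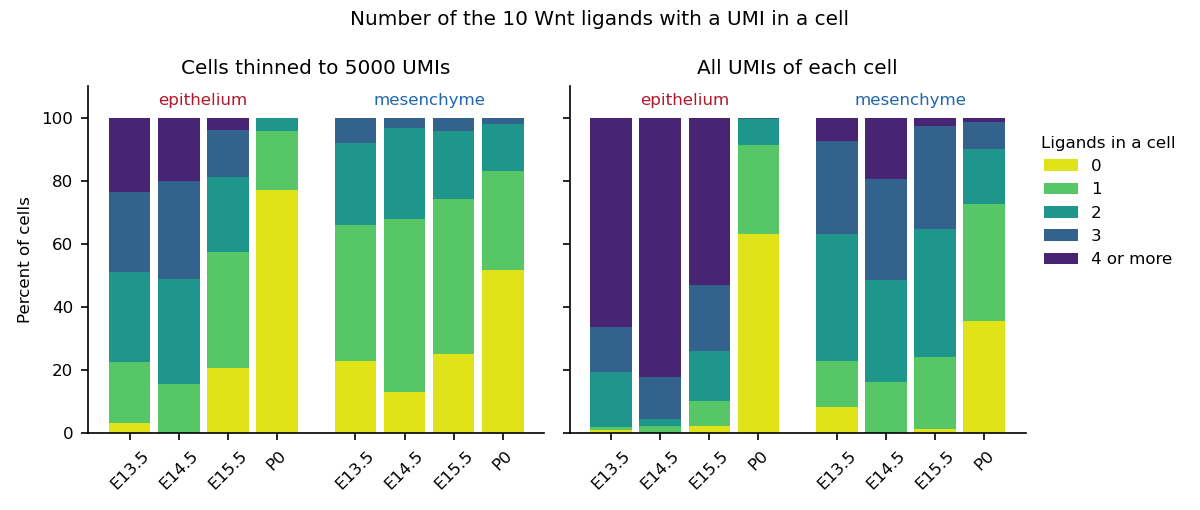
Percent of cells (vertical axis) with 0, 1, 2, 3 or at least 4 of the 10 ligands detected, by stage and tissue, with every cell thinned at random to 5000 UMIs and with all UMIs. In the thinned cells 84.4% of E14.5 epithelial cells had 2 or more ligands and 4.35% of P0 epithelial cells did.

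Single epithelial cells of the embryo carried several ligands. With each cell thinned at random to 5000 UMIs, so that depth was equal, E13.5 epithelial cells had 2.52 ± 1.23 ligands (mean and SD over 98 cells). These cells mix the clusters described later and were not split by cluster here. At the 3 later stages the means were 2.60 ± 1.07, 1.45 ± 1.11 and 0.274 ± 0.536. At least 2 ligands were found in 77.6%, 84.4%, 42.5% and 4.35% of epithelial cells. The number per cell was thus highest at the 2 earliest stages and most P0 epithelial cells showed none of the 10. In mesenchyme the means were 1.19 ± 0.885, 1.23 ± 0.717, 1.05 ± 0.797 and 0.674 ± 0.804, and 34.1%, 32.3%, 25.8% and 16.8% of cells had at least 2. With all UMIs the means were 4.23, 4.80, 3.65 and 0.461 in epithelium and 2.13, 2.55, 2.16 and 1.04 in mesenchyme, and the highest number was 9 in an E13.5 epithelial cell. With all UMIs, the deeper and shallower cells of a tissue also differed, to different degrees and not always in the same direction. They were not matched for cluster, so depth and cell make-up cannot be told apart in this split. In E13.5 epithelium, the 49 cells with fewer UMIs had a mean of 3.45 ligands and the 49 deeper ones 5.02. In E14.5 epithelium these means were 4.74 and 4.86, and in P0 epithelium the 115 deeper cells had the lower mean, 0.383 against 0.539.

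The share of cells with a UMI followed the levels. Thinned to 5000 UMIs, Wnt6 was found in 76.5%, 75.6% and 36.5% of embryonic epithelial cells, and with all UMIs in 96.9%, 91.1% and 75.9%. In mesenchyme the thinned shares were 4.44%, 9.68% and 1.06%, and the source of these UMIs was not tested. Wnt5a was found in 56.3%, 77.4%, 56.2% and 15.0% of thinned mesenchymal cells in stage order, and with all UMIs in every 1 of the 31 E14.5 cells. In thinned epithelial cells its shares were 3.06%, 24.4%, 7.71% and 2.61%. Wnt3 was found in 38.8%, 42.2% and 23.1% of thinned embryonic epithelial cells and in 1.48%, 0% and 0.353% of mesenchymal ones. Wnt2 was found in 20.1% of thinned P0 mesenchymal cells and Wnt10b in 3.66%. With all UMIs these were 27.8% and 8.42%, against 0 of 230 P0 epithelial cells for either, where the exact interval reaches 1.59%.

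Of the 6 ligands called in epithelium in the embryo, only Wnt10b was called in mesenchyme at another stage. Apart from it and Wnt4, the other 4 had mesenchymal levels of at most 7.16 CPM. Any of these 4, Wnt3, Wnt6, Wnt7b and Wnt10a, was found, with all UMIs, in 12.6%, 19.4%, 6.71% and 0.366% of mesenchymal cells from E13.5 to P0. Wnt4 by itself was found in 34.1%, 54.8%, 42.4% and 8.79% of them and Wnt10b in 2.96%, 3.23%, 2.83% and 8.42%. Any of the mesenchymal ligands Wnt2, Wnt5a and Wnt11 was found in 46.9%, 53.3%, 41.4% and 19.6% of epithelial cells.

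Ligands were then compared pair by pair within a tissue, by the share of cells with the second ligand among cells with and without the first. In E15.5 epithelium, thinned to 5000 UMIs, Wnt3 was found in 35.3% of the cells with Wnt10b (26.1 to 45.4) and in 20.2% of those without it (16.5 to 24.3). It was the only 1 of 28 pairs with intervals apart in both orders. With another random thinning, that pair was Wnt3 with Wnt6 instead. With all UMIs, 8 of 28 pairs were apart, each with the second ligand more frequent beside the first. There, Wnt6 was found in 89.5% of cells with Wnt10b and 62.3% of cells without it, and Wnt3 in 67.4% and 49.1%. With all UMIs, the shallower E15.5 epithelial cells had a mean of 3.35 ligands and the deeper ones 3.95. Whether depth accounts for these pairs was not tested. Within the largest E15.5 epithelial cluster, of 216 cells, Wnt3 was found in 62.8% of Wnt10b cells (53.6 to 71.4) and 62.1% of the others (51.6 to 71.9). The excess of this pair was thus not seen among those cells. With all UMIs, 1 of 28 pairs was apart in that cluster, Wnt10a with Wnt10b, each more frequent beside the other.

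**Figure D3:**
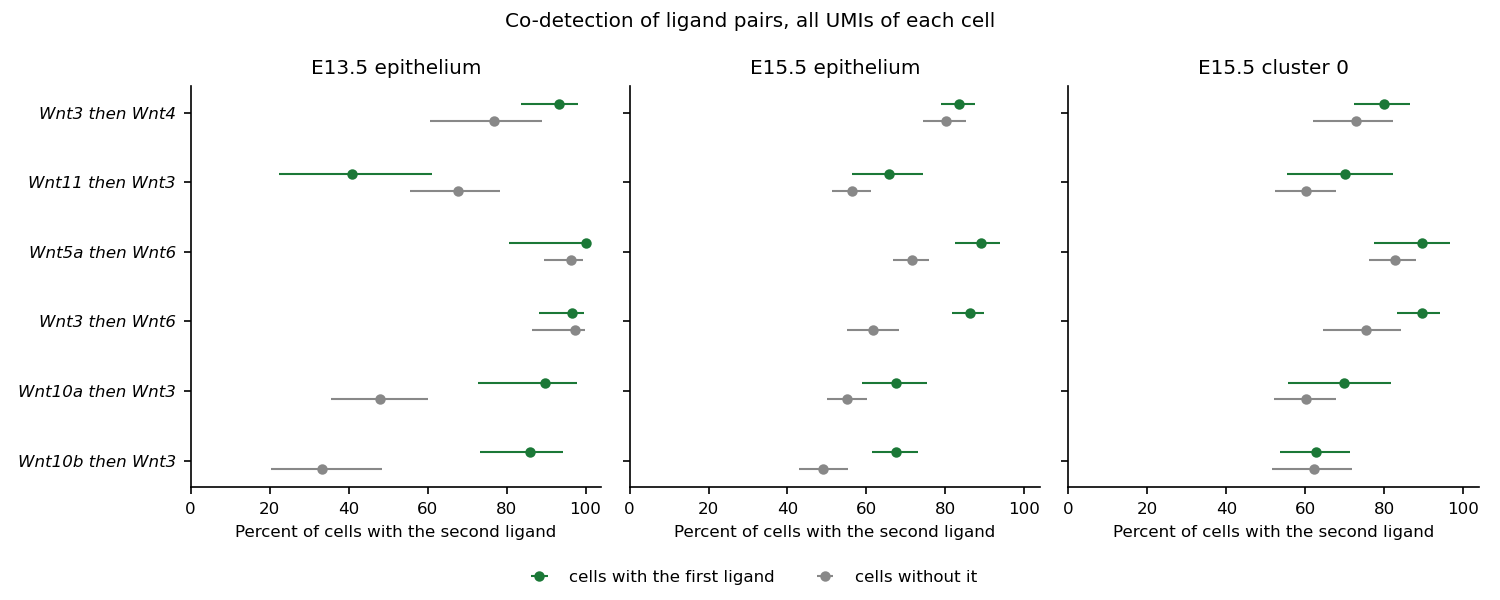
Percent of cells with a second ligand among cells with and without a first ligand (horizontal axis, with all UMIs and exact 95% binomial intervals), for pairs of ligands (vertical axis) in E13.5 epithelium, E15.5 epithelium and E15.5 cluster 0. Wnt3 beside Wnt10b was at 67.4% against 49.1% in E15.5 epithelium and at 62.8% against 62.1% in cluster 0.

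At E13.5, with all UMIs, Wnt3 was found in 86.0% of epithelial cells with Wnt10b and in 33.3% of those without. It was found in 89.7% of those with Wnt10a and in 47.8% of those without. These were the 2 of 28 pairs apart. After thinning, 1 of 21 pairs was apart, and it was in the other direction, with Wnt3 in 0 of the 11 cells with Wnt11 (an interval that reaches 28.5%) and in 43.7% of the others. With another random thinning only 10 pairs had enough cells there, and none of these was apart. A pair needed 10 cells with each ligand, and Wnt11 was near that limit, so the repeat may not have covered its pair with Wnt3. These E13.5 shares mix clusters, and pairs were not compared within an E13.5 cluster. Cluster 3, described later, held 32 of the cells, with 2 of the 317 Wnt3 UMIs, 4 of the 145 Wnt10b UMIs and 29 of the 44 Wnt11 UMIs. None of the pairs in embryonic mesenchyme was apart. Wnt5a and Wnt11 were found together in 171 of 283 E15.5 mesenchymal cells. In P0 mesenchyme, with all UMIs, Wnt2 was found in 69.2% of the 13 cells with Wnt16 and in 25.8% of those without, the 1 of 15 pairs apart there. Wnt2 was in 52.2% of the cells with Wnt10b (30.6 to 73.2) and 25.6% of those without (20.3 to 31.5), whose intervals overlapped. After thinning, Wnt16 was in 9 cells, too few to compare, and none of 10 pairs was apart. These P0 shares also mix clusters, and cluster 2, described later, held 139 Wnt2 and 10 Wnt16 UMIs. In P0 epithelium none of 3 pairs was apart, except Wnt7b with Wnt11 under another random thinning.

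Each library was clustered by itself without Wnt genes among the variable genes, and clusters are named by number and by the genes that lead them. Cells were grouped by other genes of the same libraries, so ratios between clusters describe and do not test. E13.5 epithelium fell into 3 clusters with different ligands. Cluster 4, of 22 cells, was led by Pthlh, a signal of the mammary bud to its mesenchyme, by Msx1 and by Dusp2. It had Wnt6 at 706 CPM, Wnt3 at 240, Wnt4 at 232, Wnt10b at 83.5, Wnt10a at 48.5 and Wnt5a at 43.1. Cluster 2, of 44 cells, was led by Col17a1, Cxcl14 and Bcam. It had Wnt6 at 301 CPM, Wnt4 at 283, Wnt3 at 207, Wnt10b at 101 and Wnt7b at 63.3. Wnt6 was 2.34-fold (1.99 to 2.77) and Wnt5a 5.22-fold (2.17 to 13.4) higher in cluster 4 than in cluster 2, and Wnt7b was at 0.170 times its level there (0.0451 to 0.456).

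Cluster 3, of 32 cells, was led by Krt17, Gabrp and Hopx, and it mixed marker sets. Of the lists, 5 of 10 markers of mammary epithelium, 4 of 8 of skin epidermis, 3 of 6 of periderm (the outermost layer of embryonic skin) and 4 of 9 luminal markers were raised in it, so it is given no name. Wnt6 was at 290 CPM in it and Wnt4 at 136, while Wnt3 was at 3.45, Wnt10a at 3.45 and Wnt10b at 6.89. Wnt11 was at 49.98 CPM, 4.87-fold (2.53 to 9.77) above the rest of the epithelium. These 32 cells thus held 29 of the 44 Wnt11 UMIs of E13.5 epithelium and 2 of its 317 Wnt3 UMIs.

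**Figure D4:**
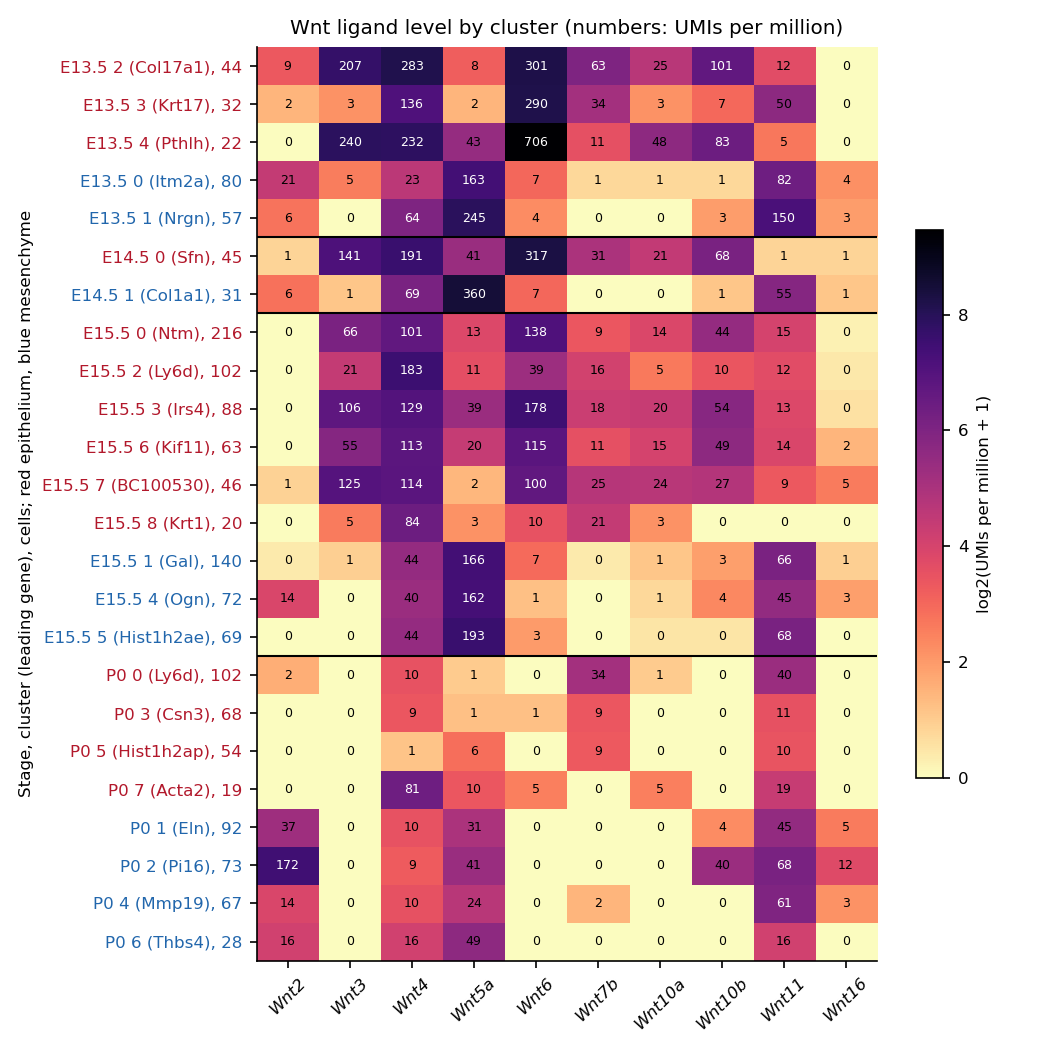
Level of each ligand (columns) in the 24 clusters of the 4 libraries (rows, with their leading genes; red for clusters of epithelium, blue for clusters of mesenchyme). Colour is log2(CPM + 1) and the numbers are CPM. Wnt3, Wnt10a and Wnt10b are low in E13.5 cluster 3 and in E15.5 clusters 2 and 8, and Wnt2, Wnt10b and Wnt16 are highest at P0 in cluster 2.

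At E15.5, 6 clusters were epithelial. Cluster 3, of 88 cells, was led by Irs4, Cxcl10 and Pou3f1, with Pthlh next. It had Wnt6 at 178 CPM, Wnt4 at 129, Wnt3 at 106, Wnt10b at 53.8 and Wnt5a at 39.1, which was 3.15-fold (2.38 to 4.16) above the other epithelial clusters. Cluster 0, of 216 cells, led by Ntm, Cd74 and Mycl, had Wnt6 at 138 CPM, Wnt4 at 101, Wnt3 at 66.3 and Wnt10b at 44.5. Cluster 2, of 102 cells, led by Ly6d and Krtdap, had Wnt4 at 183 CPM, 1.68-fold (1.51 to 1.86) above the others. In cluster 2, Wnt3 was at 0.276 times the level of the other epithelial clusters (0.210 to 0.358), Wnt6 at 0.300 (0.247 to 0.363) and Wnt10b at 0.223 (0.148 to 0.325).

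Cluster 7, of 46 cells led by BC100530, Il24 and Stfa1, had Wnt3 at 125 CPM, 2.19-fold (1.82 to 2.61) above the others, and Wnt4 at 114 CPM. Wnt7b was at 25.2 CPM there and Wnt5a at 1.68 CPM, from 2 UMIs. Cluster 8, of 20 cells, was led by Krt1, Sprr1b and Krt10, of which Krt1 and Krt10 are markers of differentiating epidermis. Its Wnt4 was at 83.8 CPM and its Wnt7b at 20.5 CPM, with Wnt3 at 5.13 and no UMI of Wnt10b or Wnt11. The proliferative cluster 6, of 63 cells, had Wnt6 at 115 CPM, Wnt4 at 113, Wnt3 at 55.3 and Wnt10b at 49.2. Wnt4 and Wnt7b were thus found in all E15.5 epithelial clusters, and Wnt3, Wnt6 and Wnt10b were low in clusters 2 and 8.

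E13.5 cluster 4 and E15.5 cluster 3, which both had Pthlh among their first 4 leading genes, were set side by side. E13.5 cluster 4 was above E15.5 cluster 3 by 3.95-fold (3.36 to 4.65) for Wnt6, 2.48-fold (1.34 to 4.42) for Wnt10a, 2.27-fold (1.75 to 2.92) for Wnt3 and 1.79-fold (1.39 to 2.30) for Wnt4. Wnt10b differed by 1.55-fold (1.01 to 2.33). The intervals of Wnt5a at 1.10 (0.601 to 1.90), Wnt7b at 0.595 (0.154 to 1.66) and Wnt11 at 0.408 (0.0470 to 1.62) took in no difference. For Wnt7b this value lay on the other side of 1 from the 3.26-fold of the whole epithelium.

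The embryonic mesenchyme also held more than 1 pattern. At E13.5, cluster 1 (57 cells, led by Nrgn, Crabp1 and Enpp2) was above cluster 0 (80 cells, led by Itm2a, Ebf3 and Ebf2) by 2.73-fold (1.77 to 4.27) for Wnt4, 1.83-fold (1.43 to 2.35) for Wnt11 and 1.5-fold (1.25 to 1.80) for Wnt5a. Wnt2 was at 20.5 CPM in cluster 0 and 5.71 in cluster 1. Of the proliferation markers, 5 were raised in cluster 1 and 0 in cluster 0. Cell cycle and other cell make-up therefore cannot be told apart in these E13.5 differences. At E15.5, 20 of the 21 Wnt2 UMIs of mesenchyme were in cluster 4 (72 cells, led by Ogn, Agtr2 and Aspn), of which 13 were in 1 cell. Wnt5a was at 166, 162 and 193 CPM in clusters 1, 4 and 5.

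At P0, Wnt2, Wnt10b and Wnt16 were concentrated in cluster 2 of the mesenchyme, of 73 cells led by Pi16, Akr1c18 and Dpp4, of which Pi16 and Dpp4 mark adventitial fibroblasts in adult tissues. It held 139 Wnt2 UMIs, at 172 CPM, 6.71-fold (4.70 to 9.75) above the other mesenchymal clusters. It held 32 of the 35 Wnt10b UMIs, at 39.6 CPM, 21.1-fold (6.60 to 108) above the others. Wnt16 was at 12.4 CPM, 3.30-fold (1.09 to 11) above. Wnt11 was at 68.1 CPM and 1.47-fold (1.02 to 2.11). Wnt5a at 1.31-fold (0.815 to 2.07) and Wnt4 at 0.769 times (0.272 to 1.93) had intervals that take in no difference. Wnt2 was itself sixth among the leading genes of this cluster. Within it, Wnt2 was found in 60% of Wnt10b cells and 66.0% of the others.

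P0 epithelium kept few ligands, in different clusters. Cluster 0, of 102 cells led by Ly6d, Wfdc2 and Lgals3, had Wnt11 at 39.5 CPM, 3.47-fold (1.97 to 6.30) above the other epithelial clusters, and Wnt7b at 34.3 CPM, 4.31-fold (2.24 to 8.71) above. Cluster 7, of 19 cells, was led by Acta2, Il17b and Myl9, and Acta2, a contractile actin, is on the list of basal markers. It had Wnt4 at 81.3 CPM, from 17 of the 35 Wnt4 UMIs, 11.3-fold (5.48 to 23.3) above the others. Wnt7b had no UMI in cluster 7. Compared with E15.5 cluster 2, which shares Ly6d as its leading gene, P0 cluster 0 had Wnt7b 2.16-fold and Wnt11 3.32-fold higher and Wnt4 17.6-fold (9.49 to 36.9) lower.

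Across the 24 clusters, the pattern of each ligand was compared with all genes by Pearson correlation of log2(CPM + 10). Clusters of 1 library share its stage and are not independent samples, so these values describe only. The gene most like Wnt3 was Wnt10a (r = 0.974), followed by Kremen2 (0.964), a receptor of Dickkopf inhibitors, and Kcnh7 (0.961). Wnt10b was also most like Kremen2 (0.899) and Wnt3 (0.898). Wnt6 was most like Fras1 (0.948), a basement membrane protein gene, and Wnt7b most like Esrp1 (0.874), a splicing regulator of epithelia, and the receptor gene Fzd6 (0.868). Wnt4 was most like Krt5 (0.889). In mesenchyme-led patterns, Wnt5a was most like Zfp354c (0.946), Wnt2 like Pamr1 (0.929) and Efemp1 (0.918), and Wnt11 like Hoxc10 (0.841).

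Of the 9 other Wnt ligands, few had enough UMIs to compare, namely 2, 1, 3 and 2 in stage order. Wnt5b, a close relative of Wnt5a, was at 10.8 CPM in E13.5 mesenchyme and 1.96 in epithelium, 5.51-fold (1.91 to 21.7) higher in mesenchyme. At E15.5 it was 6.35-fold (3.1 to 15.1) higher in epithelium, and at P0 12.1-fold (4.91 to 38.5), at 24.1 against 1.99 CPM, a level in epithelium beside the 21.8 CPM of Wnt11. Wnt9a was mesenchymal where tested, with 21.1 against 1.15 CPM at P0, 18.4-fold (5.97 to 92.1). Wnt7a was called in E14.5 epithelium, at 16.5 CPM with no UMI in mesenchyme, and in E15.5 epithelium, at 1.75 against 0.551 CPM.

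Of the 2 genes needed to make Wnt proteins ready for secretion, Wls, the carrier that takes Wnts to the cell surface, was in both tissues. It was at 241, 287, 219 and 67.7 CPM in epithelium in stage order and at 151, 239, 277 and 142 CPM in mesenchyme. Only the P0 difference was called, 2.09-fold (1.74 to 2.52) higher in mesenchyme. Porcn, which adds the lipid, was at most 6.28 CPM in any tissue, and E15.5 was the only stage with enough UMIs, with no call.

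Among 15 receptor and coreceptor genes, 1 of 13 tested was higher in epithelium and 4 in mesenchyme at E13.5, beside 10.3% and 21.9% of all genes. In the same order, E14.5 had 3 and 4 of 11, E15.5 had 4 and 5 of 14, and P0 had 2 and 6 of 13. The shares over all genes at these stages were 14.7% and 17.5%, 16.8% and 22.5%, and 24.7% and 18.9%. Fzd6 was epithelial at every stage, by 18.1-fold (10.1 to 35.6), 19.1-fold (5.05 to 161), 16.5-fold (9.88 to 29.6) and 6.52-fold (2.54 to 21.4). Ror2, a receptor of Wnt5a, was mesenchymal, by 30.8-fold (10.3 to 152) at E13.5 and at least 25.3-fold (interval from 19.8) at E14.5. The later ratios of Ror2 were 34.4-fold (21.9 to 56.9) at E15.5 and 8.04-fold (3.65 to 21) at P0. Fzd2 was mesenchymal by 4.42-fold, 3.80-fold, 3.13-fold and 25.4-fold. The coreceptor Lrp6 was called in neither tissue at any stage.

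Of 11 secreted inhibitors, those with enough UMIs were mostly higher in mesenchyme, 6 of 6, 4 of 6, 7 of 8 and 4 of 5 in stage order, beside 21.9%, 17.5%, 22.5% and 18.9% of all genes, with 1, Dkk4, called in epithelium at E14.5. Dkk2, which blocks the LRP coreceptors, was at 106, 179, 110 and 9.17 CPM in mesenchyme, and epithelium held 2, 0, 7 and 0 UMIs. Wif1, which binds Wnt proteins, was at 21.2, 47.7 and 163 CPM in embryonic mesenchyme and had 1 UMI there at P0. Sfrp2, a soluble Frizzled-like binder, was mesenchymal at every stage, 34.8-fold (18.7 to 73.3) at P0. Sfrp4 reached 27.5 CPM in P0 mesenchyme and had at most 15 UMIs in a tissue before birth.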

How the data were processed

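The 4 libraries were made with the 10x Chromium 3′ v3.1 kit, 1 per stage. The authors deposited raw UMI counts per gene and cell barcode from Cell Ranger on mm10, version 3.1.0 per the file headers for E15.5 and 6.0.0 for the other stages. The ligands, markers and listed genes were found by symbol, and each of the 10 ligands had the same Ensembl identifier in all 4 libraries. Cells were kept from 5000 UMIs on and up to 6% mitochondrial UMIs (235, 76, 816 and 503 cells in stage order). Doublets had been excluded in the sorting gate. Scrublet in scanpy 1.11.5 called 2, 4, 7 and 4 further ones, which were kept and left out in an alternative. UMIs were summed per tissue, and a tissue with no UMI was read as 3 counts in ratios. Shares of cells were computed after thinning each cell to 5000 UMIs and without thinning. Clusters were made with Seurat 5.3.0 and sctransform 0.4.2 in R 4.3.3, with 2000 variable genes, 15 principal components and resolution 0.8. Named genes are the 10 ligands, the fixed lists of other Wnt pathway genes, the 3 leading genes of each cluster, and the 3 genes most like each ligand with 100 UMIs or more. Any other gene was named after its values were seen. The ligands and lists were chosen with earlier results of these data known. Ratio and interval code was tested on simulated data. Alternatives changed the cell filters, the tissue rule, doublets, cycling cells, depth, scaling, fold and gene minimum, thinning and the clustering.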

Additional observations from a re-analysis of the deposited data

Results flagged for a closer look

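Of the 10 ligands, Wnt10b was the member whose called difference between the tissues had opposite directions at different stages. Its log2 ratio of epithelium to mesenchyme was 5.42, 5.84 and 3.95 at the 3 embryonic stages in order, and -3.60 at P0, where the epithelium had no UMI and was read as 3 counts. With 1 library per stage, this difference between stages was not tested.

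Ligand UMIs were also present in the barcodes that the cell filters removed. Their summed level of the 10 ligands was 659.7 CPM in 746 barcodes at E13.5, 591.4 in 731 at E14.5, 367.5 in 1826 at E15.5 and 96.1 in 963 at P0. The kept cells of both tissues together were at 632, 689, 359 and 122 CPM.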

How the results depend on the processing

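No paired analysis was possible because each stage is 1 library, and for the same reason no replicate could be left out. The numbers of ligands called in a tissue stayed within 1.5 times under every alternative except thinning of every cell to 5000 UMIs at E14.5, which left 3 in epithelium and 1 in mesenchyme. The share of all genes called after thinning is not given here, so these numbers were not set against it. Of 262 alternative values of the log2 tissue ratios, 236 stayed inside the counting interval of the reported ratio and 26 did not. None of a called ligand changed sign, and Wnt16 at E15.5, which was not called, went from -0.08 to 0.02 with median-of-ratios scaling. Wnt7b and Wnt10a at E14.5 gave no ratio after thinning. The percent of cells with at least 1 ligand depends on depth. Without thinning it was 91.852 in E13.5, 100 in E14.5, 98.587 in E15.5 and 64.469 in P0 mesenchyme, and 97.932 in E15.5 and 36.957 in P0 epithelium. Thinned to 10000 UMIs, it was 100 in E14.5, 91.336 in E15.5 and 77.273 in P0 mesenchyme, and 94.186 in E15.5 epithelium. In E15.5 mesenchyme, it was 67.559 with a mitochondrial maximum of 10% and 68.905 with another thinning, against 74.9. The 10% filter also changed the random draw, so filter and draw cannot be told apart there. Both values lie under the exact interval of the reported share (69.4 to 79.9), which leaves out the error of thinning. A minimum of 3000 UMIs gave no other value of the thinned shares, since shallower cells cannot be thinned to 5000. The 45 epithelial and 31 mesenchymal cells of E14.5 and the few UMIs of Wnt16 limit what could be seen of them.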
